A study of Mus musculus with 16 samples.

Results

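The genes described here are 7 stromal and osteoblast-lineage matrix genes, Col1a1, Col1a2, Col3a1, Sparc, Bgn, Dcn and Fn1, followed through 16 libraries of mouse osteoclast cultures. They were taken by symbol from a table of 21936 genes, and all 7 were found and had enough counts to enter the test of 12093 genes. Each was set against Ctsk, the cathepsin K gene, whose level in a library served as the measure of how strongly osteoclast genes were expressed there. Osteoclasts were grown from bone marrow cells of C57BL/6J mice that carried the myeloid surface marker CD11b. The cells received M-CSF alone at 50 ng/ml for 3 days, and RANKL at 20 ng/ml was given from then on. RNA was collected on day 3 to 5, at the appearance of mature osteoclasts. The starting point of that day count is not stated here. There were 4 genotypes with 4 libraries each. FLT3 ITD Ptprc KO, called the double mutant here, carries the Flt3 internal tandem duplication knock-in and lacks Ptprc. FLT3 ITD carries the knock-in alone, Ptprc KO the knockout alone, and WT neither. All 16 cultures received both cytokines, and no library is labelled with the FLT3 inhibitor that the culture protocol mentions. The phosphatase CD45, found on nearly all nucleated blood cells, is the product of Ptprc. The duplication keeps the cytokine receptor kinase FLT3 switched on without its ligand. The age and sex of the mice, the day of each culture and whether replicates came from separate animals are not given in the sources used here. The p-values therefore measure the spread between these libraries, which may be technical.

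Osteoclasts are multinucleated cells of the monocyte lineage that dissolve bone. Bone matrix is made by another lineage, that of osteoblasts and stromal cells: type I collagen forms its fibres, fibronectin and the small proteoglycans bind and organise the fibres, and SPARC binds collagen and mineral. Cathepsin K is the protease with which osteoclasts cut type I collagen, so the measured genes stand at opposite ends of bone turnover. In bulk RNA, fewer cells of a type and less RNA per cell cannot be told apart.

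Total counts per library were 24211724 to 35773313. Ptprc, which checks the knockout part of the genotype labels, averaged 64.8 ± 15.3 CPM (counts scaled to the TMM-adjusted library total) in the double mutant, 401 ± 129 CPM in FLT3 ITD, 38.7 ± 6.45 CPM in Ptprc KO and 454 ± 28.5 CPM in WT (SD, n = 4 each). Its level cannot check the knock-in part. FLT3 ITD replicates 1 and 3 were closer to each other than any other replicates, with a mean chi-square per gene of 2.77, where the nearest other pair had 13.0. The value exceeds sampling noise, and they were kept as separate libraries, but it does not show that they came from separate cultures, and n for FLT3 ITD may be 3. With the 2 summed, the same 5 matrix genes passed in the relation to Ctsk described further on, and 0 passed between genotypes. FLT3 ITD replicate 2 deviated from its group in step with gene length (Spearman rho of -0.458 over 12093 genes), and replicates 1 and 3 deviated the other way (0.423 and 0.435). The osteoclast label was checked against 14 osteoclast genes, which summed to 9841 to 50048 CPM in double mutant libraries, 17442 to 58974 CPM in FLT3 ITD, 27113 to 69387 CPM in Ptprc KO and 31894 to 41645 CPM in WT.

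All 7 matrix genes were present at trace levels next to Ctsk. Per length, the 7 genes together summed to between 0.00415% and 0.369% of the TPM (the authors' expression value scaled for gene length) of Ctsk in a library, with a median of 0.0257% over the 16 libraries. Their median TPM ran from 0.166 for Col3a1 and 0.189 for Col1a2 through 0.455 for Fn1, 0.462 for Col1a1, 0.520 for Sparc and 0.562 for Dcn to 0.668 for Bgn, against 18568 for Ctsk. Among the 12093 genes tested these medians stood between percentiles 1.86 and 8.14. The levels varied more between libraries than that of the median tested gene. The standard deviation of log2 CPM over the 16 libraries was 2.22 for Fn1, 2.10 for both Col1a1 and Col1a2, 1.85 for Col3a1, 1.72 for Sparc, 1.02 for Dcn and 1.01 for Bgn, against a median of 0.377 over all tested genes. This spread includes counting error, and it was not compared with that of genes of similar level. Genotype accounted for 54.0% of the variance of log2 CPM for Bgn, 36.4% for Col1a2, 35.5% for Sparc, 33.8% for Col1a1, 23.0% for Col3a1, 18.0% for Fn1 and 6.31% for Dcn, and the median over all tested genes was 26.0%.

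Col1a1 (ENSMUSG00000001506; GRCm38 chromosome 11, 94936224 to 94953042, plus strand) encodes the chain of type I collagen that the trimer holds in excess. Its level was 0.950, 0.726, 0.0326 and 3.09 CPM in double mutant replicates 1 to 4, and 0.345, 0.390, 0.375 and 2.08 CPM in FLT3 ITD. In Ptprc KO it was 1.02, 0.219, 0 and 3.07 CPM, and in WT 0.830, 6.39, 2.58 and 16.7 CPM. The raw counts behind these ran from 0 in Ptprc KO replicate 3 to 471 in WT replicate 4. Replicate 4 had the highest level in every genotype, and the groups overlapped, since WT replicate 1 lay below at least 1 library of each mutant. The 0 counts in Ptprc KO replicate 3 allow a level of up to 0.113 CPM (3 counts of that library). Such limits cover counting error only.

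Col1a2 (ENSMUSG00000029661; chromosome 6, 4504814 to 4541544, plus strand), the partner chain of type I collagen, had a pattern much like it. It had 0.888, 0.657, 0.163 and 2.55 CPM in the double mutant and 0.0627, 0.217, 0.250 and 1.998 CPM in FLT3 ITD. It had 0.571, 0.175, 0 and 3.29 CPM in Ptprc KO and 0.588, 5.07, 2.47 and 14.3 CPM in WT. Replicate 4 was again the highest of each genotype, and Ptprc KO replicate 3 again held no count. In the 6 libraries with at least 40 counts of both chains, the ratio of Col1a1 to Col1a2 TPM lay between 1.74 and 2.39, with a median of 1.95. This ratio depends on the gene lengths used, deposited as 6563 bases for Col1a1 and 12426 for Col1a2. The raw counts were closer to each other. They were 241 and 191 in WT replicate 2, which had the highest ratio, and 86 and 92 in Ptprc KO replicate 4, which had the lowest.

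Col3a1 (ENSMUSG00000026043; chromosome 1, 45311538 to 45349706, plus strand) encodes type III collagen, a fibre of soft tissue, vessels and marrow stroma. It had the fewest counts of the 7, 289 over all 16 libraries. Its level was 0.490, 0.450, 0 and 0.660 CPM in the double mutant and 0.0313, 0.0433, 0.0938 and 0.874 CPM in FLT3 ITD. It was 0.391, 0, 0 and 0.857 CPM in Ptprc KO and 0.0346, 1.09, 1.55 and 3.13 CPM in WT. The mutant libraries with no count allow up to 0.0977 CPM in double mutant replicate 3, 0.131 CPM in Ptprc KO replicate 2 and 0.113 CPM in Ptprc KO replicate 3, which is above the level of WT replicate 1.

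Sparc (ENSMUSG00000018593; chromosome 11, 55394500 to 55423183, minus strand) encodes osteonectin, a collagen- and calcium-binding matrix protein abundant in bone. It had 0.551, 0.795, 0.0326 and 1.47 CPM in the double mutant and 0.125, 0.347, 0.219 and 1.37 CPM in FLT3 ITD. It had 0.241, 0.219, 0.0378 and 1.82 CPM in Ptprc KO and 0.553, 3.16, 1.41 and 6.15 CPM in WT. Replicate 4 was the highest library of all 4 genotypes for Sparc and Col3a1 too. The labels do not say that a replicate number marks a shared batch.

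Bgn (ENSMUSG00000031375; chromosome X, 73483602 to 73495933, plus strand) encodes biglycan, a small leucine-rich proteoglycan of bone and cartilage. Its pattern was another: 0.796, 1.11, 0.228 and 1.08 CPM in the double mutant, 0.658, 0.606, 0.657 and 0.999 CPM in FLT3 ITD, 1.32, 3.02, 2.08 and 2.11 CPM in Ptprc KO, and 1.04, 3.26, 1.03 and 4.51 CPM in WT. All 4 FLT3 ITD libraries lay below all 4 Ptprc KO libraries and below all 4 WT libraries, the last by a narrow margin (0.999 against 1.03 CPM). The double mutant libraries lay below those of Ptprc KO and overlapped those of WT.

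Dcn (ENSMUSG00000019929; chromosome 10, 97479609 to 97518143, plus strand) encodes decorin, a relative of biglycan that binds collagen fibrils. It had 1.29, 0.173, 1.47 and 5.10 CPM in the double mutant, 1.00, 1.73, 1.00 and 0.624 CPM in FLT3 ITD, 0.391, 1.23, 1.70 and 0.607 CPM in Ptprc KO, and 0.622, 1.14, 0.378 and 1.07 CPM in WT. The double mutant held both its highest library, replicate 4 with 170 counts, and its lowest, replicate 2 with 5 counts. The remaining 14 libraries lay between 0.378 and 1.73 CPM with no separation by genotype.

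Fn1 (ENSMUSG00000026193; chromosome 1, 71585520 to 71653200, minus strand) encodes fibronectin, an adhesive glycoprotein that macrophages as well as stromal cells can make. It had 1.01, 14.8, 1.95 and 7.92 CPM in the double mutant and 0.940, 0.347, 1.03 and 34.1 CPM in FLT3 ITD. It had 1.02, 0.394, 0.151 and 10.8 CPM in Ptprc KO and 0.830, 8.67, 5.84 and 17.2 CPM in WT. FLT3 ITD replicate 4, with 820 counts, was the highest library of the series, and the other 3 of that genotype were near 1 CPM or lower.

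Ctsk (ENSMUSG00000028111; chromosome 3, 95499256 to 95509362, plus strand), the gene they were set against, had 1904, 1399, 8508 and 1169 CPM in the double mutant and 12258, 18506, 11778 and 4203 CPM in FLT3 ITD. It had 5960, 16696, 14900 and 6177 CPM in Ptprc KO and 7302, 9366, 7856 and 8103 CPM in WT. Double mutant replicates 1, 2 and 4 were below every other library, and WT varied least. No gene that overlaps any of the 8 in the GENCODE annotation had a count among the 21936 deposited genes. An overlapping gene left out of the deposited data would look the same, so sharing of reads was not tested.

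**Figure D1:**
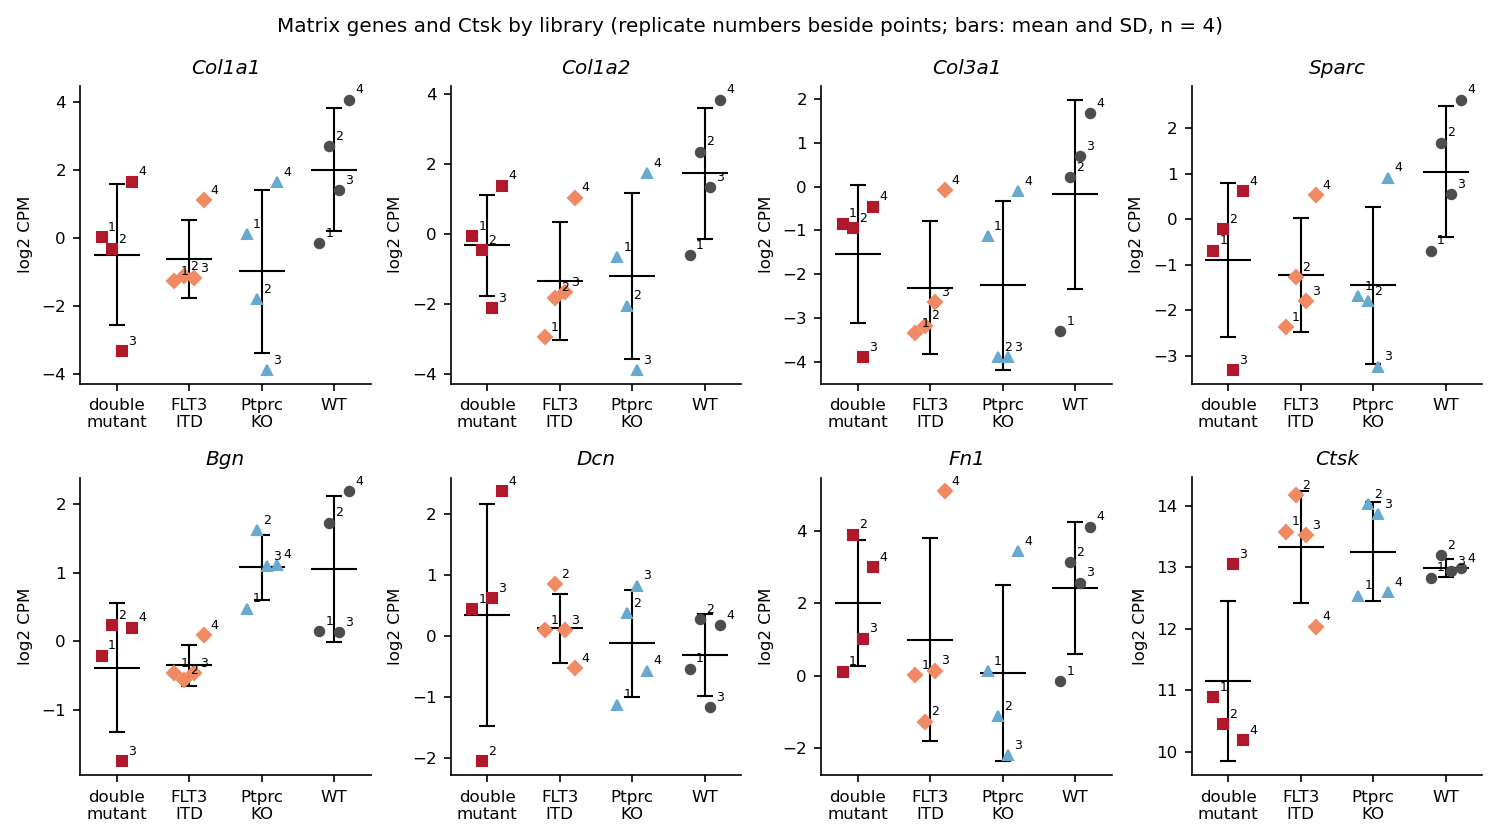
Log2 CPM (prior count 2) of the 7 matrix genes and Ctsk in each of the 16 libraries, by genotype, with replicate numbers beside the points and bars for the mean and SD of 4 libraries. Replicate 4 stands at the top of each genotype for Col1a1, Col1a2, Col3a1 and Sparc, while for Bgn the FLT3 ITD libraries lie below all those of Ptprc KO.

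The starts of genes that moved together and of Bgn, which followed them less closely, are shown to let their upstream sequences be compared. The RefSeq promoter table (build GRCm38.p6, 250 bases before to 50 after the start) held 4 of the 7 genes, and Col1a1, Dcn and Fn1 are named only. The windows are chr6:4505368-4505667 (plus strand) for Col1a2, chr1:45311288-45311587 (plus) for Col3a1, chr11:55420031-55420330 (minus) for Sparc and chrX:73483351-73483650 (plus) for Bgn. For Col1a2 and Sparc the window lies inside the gene as GENCODE draws it, which starts further upstream. Capitals mark 4 motifs searched on both strands. They are the CCAAT box, the string TATAAA that general transcription factors can bind, the GC box GGGCGG, and the AP-1 string TGANTCA.
Col1a2: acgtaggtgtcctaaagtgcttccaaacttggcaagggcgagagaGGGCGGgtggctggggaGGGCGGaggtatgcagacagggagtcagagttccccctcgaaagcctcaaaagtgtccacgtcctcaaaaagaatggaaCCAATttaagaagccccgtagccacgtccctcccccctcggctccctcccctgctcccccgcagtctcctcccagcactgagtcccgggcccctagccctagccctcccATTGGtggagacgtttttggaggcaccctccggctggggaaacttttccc
Col3a1: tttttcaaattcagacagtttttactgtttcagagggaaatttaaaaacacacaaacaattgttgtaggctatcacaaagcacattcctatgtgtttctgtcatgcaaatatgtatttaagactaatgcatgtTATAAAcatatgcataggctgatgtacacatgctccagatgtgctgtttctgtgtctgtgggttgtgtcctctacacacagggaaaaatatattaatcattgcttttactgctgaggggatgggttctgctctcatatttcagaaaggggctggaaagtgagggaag
Sparc: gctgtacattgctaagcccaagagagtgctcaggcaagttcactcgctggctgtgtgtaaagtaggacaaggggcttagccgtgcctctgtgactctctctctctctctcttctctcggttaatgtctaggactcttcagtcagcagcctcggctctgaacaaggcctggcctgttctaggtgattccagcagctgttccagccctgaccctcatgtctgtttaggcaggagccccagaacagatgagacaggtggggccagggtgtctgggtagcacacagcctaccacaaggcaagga
Bgn: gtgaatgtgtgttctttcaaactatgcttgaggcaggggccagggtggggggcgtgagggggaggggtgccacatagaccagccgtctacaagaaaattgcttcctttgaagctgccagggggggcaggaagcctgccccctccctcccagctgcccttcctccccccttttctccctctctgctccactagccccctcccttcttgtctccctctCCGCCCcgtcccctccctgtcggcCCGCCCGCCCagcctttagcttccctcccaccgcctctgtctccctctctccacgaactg

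The windows had little in common. Col1a2 held 2 CCAAT matches, 1 on each strand, and 2 GGGCGG matches. Col3a1 held 1 TATAAA match, Sparc none of the 4 motifs, and Bgn 3 GGGCGG matches on the minus strand, of which 2 overlap. Among 32851 promoters of the same length in the table, 37.4% held CCAAT, 13.6% TATAAA, 35.7% GGGCGG and 7.81% TGANTCA. A match is a string of letters and not a measured binding site.

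Across the 16 libraries, Col1a1, Col1a2, Col3a1 and Sparc were high and low together. Their log2 CPM correlated with Pearson r of 0.90 to 0.97 in the 6 pairs among them. Col1a1 and Col1a2 had r = 0.96 and Spearman rho = 0.96, each with a permutation p of 1e-05, the smallest that 100000 permutations can give, and an adjusted p of 0.0202 over all tested genes set against Col1a1. Without the 2 libraries farthest from the Col1a1 median (Ptprc KO replicate 3 and WT replicate 4), r was 0.93. After each genotype was centred on its own mean, r was still 0.96 for Col1a1 with Col1a2, 0.91 with Col3a1 and 0.95 with Sparc. Fn1 moved with these 4 less tightly, at r of 0.75 to 0.82, and with Col1a1 at r = 0.75 (rho = 0.70; unadjusted permutation p = 0.00066 and 0.00334, adjusted p = 0.469 and 0.217 over all genes set against Col1a1). Over all genes set against Fn1, the adjusted p of that pair was 0.0351 for r and 0.0592 for rho, and that of Fn1 with Col1a2, Col3a1 and Sparc was 0.0351 for r. Bgn had r of 0.44 to 0.57 with the same 4 genes, and its r with Col1a1 was 0.52 (rho = 0.46, permutation p = 0.0380 and 0.0726, adjusted p = 0.542 and 0.243). Without double mutant replicate 3 and WT replicate 4, which lie farthest from the Bgn median, that r was 0.12. Without Ptprc KO replicate 3 and WT replicate 4, which lie farthest from the Col1a1 median, it was 0.61, so the value depends on which libraries are left out. After centring on genotype, Bgn had r of 0.60 with Col1a1, 0.55 with Col1a2, 0.51 with Col3a1 and 0.70 with Sparc. Dcn had r of -0.24 to -0.12 with the 4 genes and followed none of them.

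**Figure D2:**
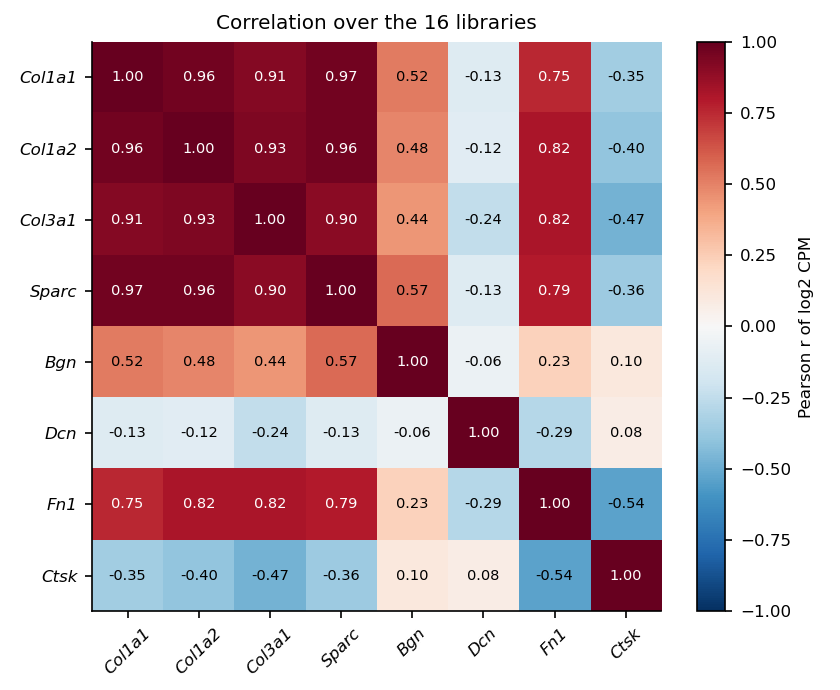
Pearson r of log2 CPM over the 16 libraries for each pair of the 7 matrix genes and Ctsk, from -1 (blue) to 1 (red). The block of Col1a1, Col1a2, Col3a1 and Sparc lies at 0.90 to 0.97, Fn1 joins it at 0.75 to 0.82, and Dcn has negative values with all of them.

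The tested genes most like each matrix gene, by Pearson r of log2 CPM over the same 16 libraries, differed between the collagen group and the rest. For Col1a1 they were Sparc, Col1a2 and, at r = 0.94, Col5a2, a chain of type V collagen. Col5a2 was also first for Col1a2 (r = 0.96), and Col12a1, a fibril-associated collagen, was first for Col3a1 (r = 0.93). Sparc was nearest to Col1a1, Col1a2 and the actin-binding gene Cald1 (r = 0.94). For Fn1 they were Dlg3 (r = 0.90), Timp3, an inhibitor of matrix metalloproteinases (r = 0.89), and Kctd7 (r = 0.89). Bgn was nearest to Cd38, Hpgd and Fsd2 at r of 0.78 to 0.81, and Dcn to Bri3bp, Plp2 and Map2k6 at r of 0.79 to 0.82. Ctsk itself was nearest to Acp5, the tartrate-resistant acid phosphatase of osteoclasts (r = 0.99), Apbb1 and Gimap6. These are the top 3 of all tested genes in each case, and the libraries they were ranked on are the same throughout.

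Against Ctsk, pooled over genotypes, the collagen group and Fn1 had negative correlations, of which the rank correlation of Fn1 alone passed the test. Fn1 had the strongest, with r = -0.54 (permutation p = 0.0323, adjusted p = 0.0652 over all tested genes) and rho = -0.60 (p = 0.0155, adjusted p = 0.0358, where 46.8% of all tested genes passed by rho). Col3a1 had r = -0.47 (adjusted p = 0.116) and rho = -0.50 (0.0927), Col1a2 r = -0.40 (0.2) and rho = -0.56 (0.0568). Sparc had r = -0.36 (0.250) and rho = -0.47 (0.117), and Col1a1 r = -0.35 (0.269) and rho = -0.53 (0.0715). Bgn and Dcn were near 0, at r = 0.10 (adjusted p = 0.766) and 0.08 (0.830), with rho of -0.08 and 0.36. None of the 7 passed an adjusted p of 0.05 for Pearson r, whereas 46.9% of all tested genes did, in one direction or the other. Double mutant replicates 2 and 4 were farthest from the median Ctsk, and without them r was -0.44 for Fn1, -0.52 for Col3a1, -0.45 for Col1a2, -0.33 for Sparc, -0.39 for Col1a1, 0.10 for Bgn and 0.37 for Dcn.

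The pooled values mix differences between genotypes with differences within them. The double mutant averaged lower than WT both in Ctsk (3245 against 8157 CPM) and in the collagens (Col1a1, 1.20 against 6.63 CPM), though single libraries overlapped. The relation was therefore recomputed after each genotype was centred. Centred r was -0.73 for Col1a1, -0.72 for Col3a1, -0.70 for Sparc, -0.65 for Col1a2, -0.64 for Fn1, -0.40 for Bgn and 0.32 for Dcn, with labels permuted within genotype. The adjusted p was 0.0430 for Col1a1, 0.0433 for Col3a1 and 0.0456 for Col1a2, and 0.0598 for Sparc, 0.0641 for Fn1, 0.284 for Bgn and 0.594 for Dcn. These 3 of 7 stand against 23.9% of all tested genes. Col1a1, Col3a1 and Col1a2 moved together (centred r of 0.91 to 0.96), so they are not 3 separate observations. The genotypes were not tested one by one.

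The values behind this can be read within each genotype. In the double mutant, replicate 3 had the highest Ctsk (8508 CPM, 7.28 times that of replicate 4), and it had the lowest Col1a1, Col1a2, Col3a1, Sparc and Bgn of the 4. In FLT3 ITD, replicate 4 had the lowest Ctsk (4203 CPM, against 18506 in replicate 2) and the highest Col1a1, Col1a2, Col3a1, Sparc, Bgn and Fn1. In Ptprc KO, replicates 2 and 3 had the high Ctsk (16696 and 14900 CPM), held no Col3a1 count and had at most 0.219 CPM of Col1a1, against 1.02 and 3.07 CPM in replicates 1 and 4. Bgn went the other way there, with 3.02 CPM at the highest Ctsk and 1.32 CPM at the lowest. WT was different: Ctsk ranged over 1.28 times while Col1a1 ranged from 0.830 to 16.7 CPM, so its collagen levels varied at a nearly constant Ctsk. Col1a1 was 6.39 CPM in the WT library with the highest Ctsk and 0.830 CPM in that with the lowest.

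**Figure D3:**
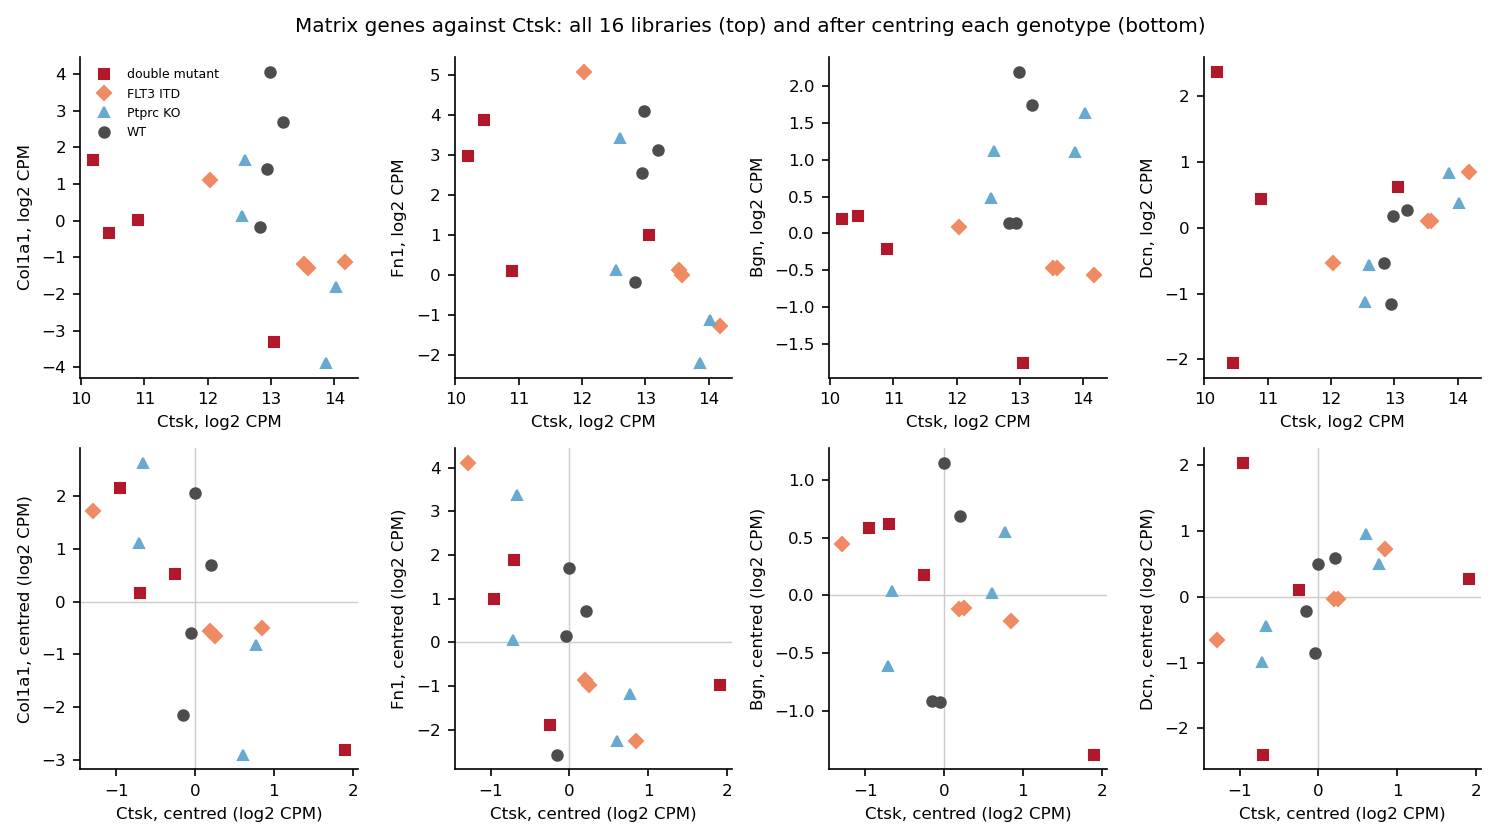
Log2 CPM of Col1a1, Fn1, Bgn and Dcn against log2 CPM of Ctsk in all 16 libraries (top), and the same values with the mean of each genotype subtracted (bottom). Col1a1 and Fn1 slope downward after centring (r = -0.73 and -0.64), while the black WT points stand in a vertical row because WT libraries differ little in Ctsk.

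A count model gave the size of the relation. It was fitted with edgeR across all genes, with the 4 genotype means and log2 CPM of Ctsk as terms, and the slope is the log2 change of a gene per 1 log2 unit (a doubling) of Ctsk between libraries of the same genotype. Col3a1 fell by 2.42 ± 0.57 (SE) per unit (adjusted p = 0.00621 by the quasi-likelihood test of edgeR, with Benjamini-Hochberg adjustment over 12092 genes). Col1a1 fell by 1.88 ± 0.49 (adjusted p = 0.0104), Fn1 by 1.72 ± 0.51 (0.0188), Col1a2 by 1.72 ± 0.50 (0.0169) and Sparc by 1.55 ± 0.43 (0.0136). The slope of Bgn was -0.32 ± 0.26 (adjusted p = 0.366) and that of Dcn 0.18 ± 0.36 (0.727). Thus 5 of 7 passed, all with a negative slope, against 17.7% of all tested genes that passed with a negative slope and 36.3% that passed in either direction. These 5 moved together across the libraries (r of 0.75 to 0.97), so they are not 5 separate observations. The median slope was -1.72 over the 7 genes and -0.02 over all genes. In size, Col3a1 had the 7th most negative slope of 12092 genes, Col1a1 the 22nd, Fn1 the 37th, Col1a2 the 40th and Sparc the 57th. A rank by size takes no account of the SE. The SD of log2 CPM of these 5 genes stood at percentiles 99.0 (Sparc) to 99.8 (Fn1) of all tested genes. The 5th and 95th percentiles of all slopes were -0.73 and 0.71.

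These calls depended on single libraries, on the genotype terms and on whether the replicate number was a term. Without FLT3 ITD replicate 4, 2 of the 7 passed, Col1a1 (-2.16, adjusted p = 0.0368) and Col3a1 (-2.52, 0.0428), while Sparc (-1.60, 0.0664), Col1a2 (-1.57, 0.0948) and Fn1 (-1.22, 0.132) did not, and the share of all genes called was 18.4%. Without double mutant replicate 3, Sparc did not pass (-1.46, adjusted p = 0.0624), and the slope of Fn1 was -3.14 (0.00497). Without double mutant replicate 4, Dcn passed with a positive slope of 0.73 (adjusted p = 0.0256). With the genotype terms dropped, none of the 7 passed, against 48.8% of all genes, and the slope of Col1a1 was -0.087. With a replicate block (the replicate number as a further term), none of the 7 passed either, against 8.43% of all genes. The slopes of Col3a1, Fn1, Col1a1, Sparc and Col1a2 were then -1.89, -1.16, -1.02, -0.87 and -0.80 (adjusted p of 0.103 to 0.291). The labels do not say what a replicate number marks. On log2(TPM + 1), which understates changes of low genes, 1 of the 6 genes tested passed, Fn1 (33.2% of all genes), and Col3a1 fell under the minimum TPM of 0.5.

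**Figure D4:**
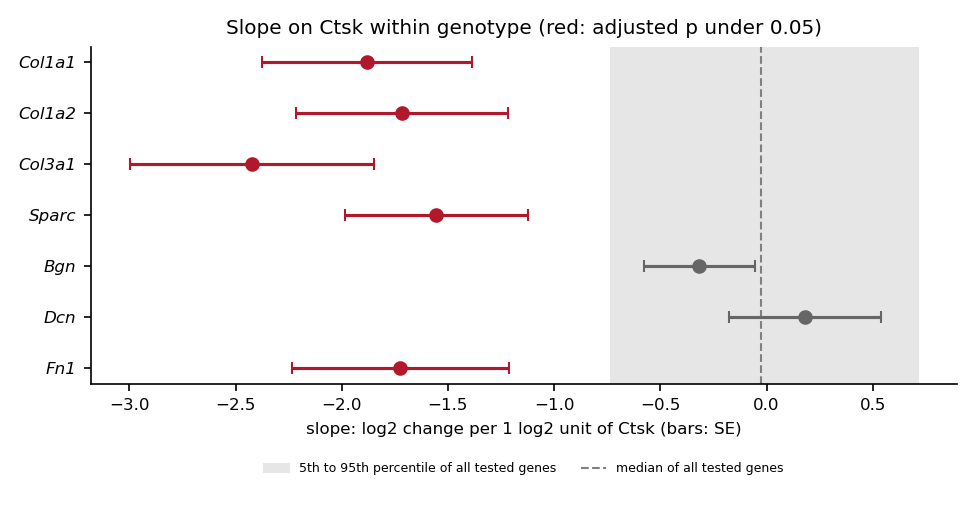
Slope of each matrix gene on Ctsk between libraries of the same genotype, in log2 units per log2 unit of Ctsk, with bars for the SE, red where the adjusted p is under 0.05. Col1a1, Col1a2, Col3a1, Sparc and Fn1 lie left of the grey band that holds the 5th to 95th percentile of all tested genes (-0.73 to 0.71), and Bgn and Dcn lie inside it.

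Between genotypes, the collagens and Sparc averaged lower in each mutant than in WT, but no difference passed the test. Col1a1 averaged 1.20 ± 1.32 CPM in the double mutant, 0.798 ± 0.856 CPM in FLT3 ITD, 1.08 ± 1.40 CPM in Ptprc KO and 6.63 ± 7.13 CPM in WT (SD, n = 4 each). In FLT3 ITD against WT, the log2 fold change was -3.06 ± 1.29 (SE) for Col1a1, -3.17 ± 1.35 for Col1a2, -2.50 ± 1.34 for Col3a1 and -2.46 ± 1.11 for Sparc, with edgeR adjusted p of 0.590 to 0.606. In Ptprc KO against WT the same 4 had -2.61, -2.46, -2.17 and -2.27, and in the double mutant against WT -2.46, -2.39, -1.84 and -1.97. These comparisons share the WT libraries, so they are not independent, and WT replicate 4 carried much of them. Without that library Col1a1 had -2.05 in FLT3 ITD, -1.58 in Ptprc KO and -1.48 in the double mutant. Without replicate 4 of the mutant the values were further from 0, at -4.15 in FLT3 ITD, -3.93 in Ptprc KO and -3.57 in the double mutant for Col1a1. The same omission gave -4.97 for Col1a2 and -4.56 for Col3a1 in FLT3 ITD, and -4.41 for Col1a2 and -4.04 for Sparc in Ptprc KO, and none of these passed. The interaction, which asks whether the knock-in changed a gene differently with and without Ptprc, was 3.21 for Col1a1, 3.24 for Col1a2, 2.83 for Col3a1 and 2.76 for Sparc, and none passed.

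Bgn was the gene with the clearest separation of genotypes. It averaged 0.803 ± 0.408 CPM in the double mutant, 0.730 ± 0.181 CPM in FLT3 ITD, 2.13 ± 0.695 CPM in Ptprc KO and 2.46 ± 1.72 CPM in WT (SD, n = 4 each). Its log2 fold change was -1.75 ± 0.54 (SE) in FLT3 ITD against WT (edgeR unadjusted p = 0.00547, adjusted p = 0.590) and -1.61 ± 0.53 in the double mutant against WT (0.00863 and 0.450). It was -1.54 ± 0.54 in FLT3 ITD against Ptprc KO (0.0119 and 0.883) and -1.40 ± 0.53 in the double mutant against Ptprc KO (0.0189 and 0.251). The 2 genotypes without the knock-in did not differ beyond their spread (Ptprc KO against WT, -0.21 ± 0.51), nor did those with it (double mutant against FLT3 ITD, 0.14 ± 0.54). Of the 7 genes it alone had libraries that did not overlap between groups, lower in FLT3 ITD than in WT, where 3.2% of all tested genes were, lower in the double mutant than in Ptprc KO (2.84%) and lower in FLT3 ITD than in Ptprc KO (1.42%). None of these 4 differences passed the adjusted threshold.

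Dcn and Fn1 showed no ordering that held. Dcn averaged 2.01 ± 2.14 CPM in the double mutant, 1.09 ± 0.464 CPM in FLT3 ITD, 0.981 ± 0.596 CPM in Ptprc KO and 0.802 ± 0.364 CPM in WT (SD, n = 4 each). Its log2 fold change in the double mutant against WT was 1.32, and 0.25 without double mutant replicate 4. Fn1 averaged 6.41 ± 6.35 CPM in the double mutant, 9.11 ± 16.7 CPM in FLT3 ITD, 3.08 ± 5.13 CPM in Ptprc KO and 8.14 ± 6.87 CPM in WT (SD, n = 4 each). Its log2 fold change in FLT3 ITD against WT was 0.16 ± 1.43 (SE), and -3.37 without FLT3 ITD replicate 4, with no adjusted p under 0.05 in either case.

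In edgeR, 0 of the 7 genes passed in any of the 6 pairs of genotypes or in the interaction. All tested genes passed in either direction at 0.0413% in FLT3 ITD against WT, 0.0331% in Ptprc KO against WT, 0.108% in the double mutant against WT, 0.00827% in the double mutant against FLT3 ITD, 0.091% in the double mutant against Ptprc KO, 0.0744% in FLT3 ITD against Ptprc KO and 0.00827% in the interaction, so the background was near 0 as well. At an unadjusted p under 0.05, 4 of 7 were lower in FLT3 ITD than in WT (Col1a1, Col1a2, Sparc and Bgn), against 3.23% of all tested genes, and Bgn was lower in the double mutant than in WT (3.69%), in the double mutant than in Ptprc KO (9.07%) and in FLT3 ITD than in Ptprc KO (1.64%). In either direction the number was 0 in Ptprc KO against WT (0.843% of all tested genes), in the double mutant against FLT3 ITD (25.7%) and in the interaction (17.5%). Of the 4 lower in FLT3 ITD than in WT, Col1a1, Col1a2 and Sparc moved together (r of 0.96 to 0.97) and are not separate observations. The median log2 fold change of the 7 genes was -1.84 in the double mutant, -2.46 in FLT3 ITD and -2.17 in Ptprc KO against WT, beside medians of 0.05, 0.04 and 0.02 over all tested genes. DESeq2 and limma on log2 TPM also called 0 of the 7 in every comparison. The voom method of limma with weights per library, which lowers the influence of libraries that stand apart, called Col1a1, Col1a2, Sparc and Bgn in FLT3 ITD against WT, where it called 16% of all genes, and Bgn in FLT3 ITD against Ptprc KO, where it called 3.13%. It called 5 of the 7 in the interaction, where it called 60.3% of all genes.

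**Figure D5:**
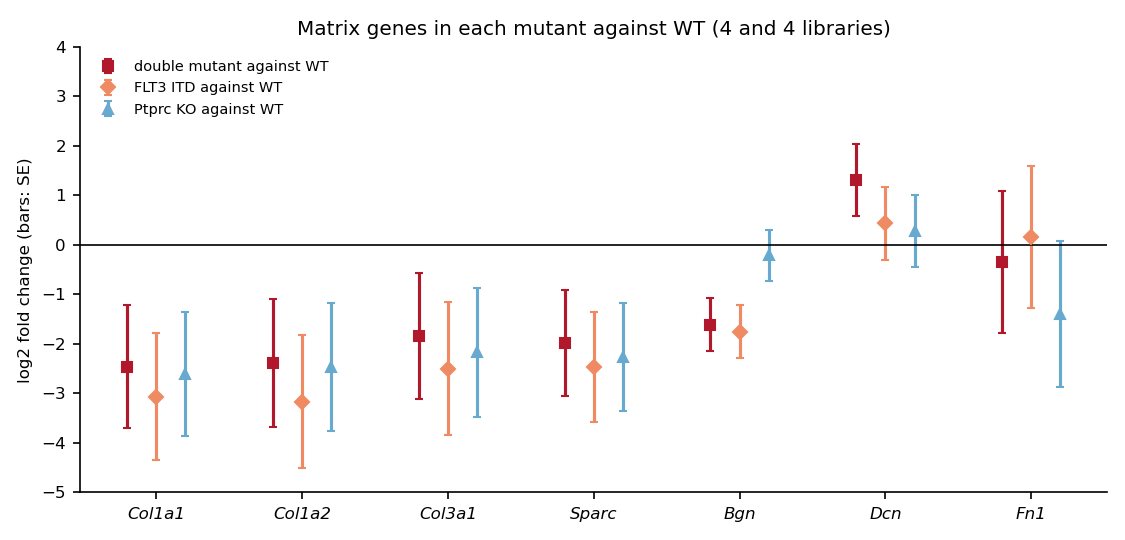
Log2 fold change of the 7 matrix genes in the double mutant, FLT3 ITD and Ptprc KO against WT, with bars for the SE of the edgeR fit (4 and 4 libraries). Col1a1, Col1a2, Col3a1 and Sparc lie between -3.17 and -1.84 in all 3 mutants with wide bars, Bgn is low in the 2 genotypes with the knock-in, and Dcn and Fn1 scatter around 0. No value passed an adjusted p of 0.05.

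The wider matrix pathway was taken from lists of genes chosen by function, and the slope on Ctsk was read for each. Of 15 other collagens, 10 were tested; 4 had a negative slope that passed and 1 a positive one, where 17.7% of all tested genes passed with a negative slope and 18.5% with a positive one. These shares hold for all lists of genes that follow. Col5a2 fell by 2.13 ± 0.50 per log2 unit of Ctsk, Col12a1 by 1.72 ± 0.54 and Col5a1 by 0.71 ± 0.26, at 0.788, 0.453 and 0.699 CPM on average, and Col18a1, a basement-membrane collagen at 68.8 CPM, fell by 0.62 ± 0.12. Col15a1, its relative, rose by 1.21 ± 0.20. Of 25 other proteoglycans and matricellular genes, 15 were tested and 5 fell, among them Thbs1 (-2.09), Tgfbi (-0.88) and Postn (periostin, -1.28), while Hspg2 (perlecan, 1.11) and Thbs2 (0.94) rose. The median slope was -0.27 for the collagens and -0.26 for the proteoglycans and matricellular genes, beside -0.02 over all genes.

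The enzymes that fold, process and cross-link collagen that passed had positive slopes, as Col15a1 did and the other collagens that passed did not. Of 12 tested, 4 rose with Ctsk (18.5% of all genes did) and none fell: Lox, which cross-links collagen (0.72 ± 0.16), P3h1 and Crtap of the prolyl-hydroxylation complex (0.29 and 0.22), and P4hb (0.17), a subunit of prolyl hydroxylase that also serves in general protein folding. Lox averaged 86.1 CPM and P4hb 867 CPM over the 16 libraries. Serpinh1, the chaperone HSP47 that is specific to collagen, averaged 1.54 CPM and its slope of 0.55 ± 0.32 did not pass (adjusted p = 0.188).

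Among matrix-degrading enzymes and their inhibitors, 8 of 12 tested fell with Ctsk (17.7% of all genes did) and 2 rose (18.5%). Mmp9 (0.84) and Mmp14 (0.52), which osteoclasts use, rose, and the macrophage elastase Mmp12 (-1.48), Ctss (-1.14), Ctsl (-0.88) and Mmp13 (-1.08) fell. The inhibitor Timp3 fell by 4.04 ± 0.81 per log2 unit. Of 12 tested receptors for collagen and fibronectin, 4 rose, Itgav (0.42), Itgb3 (0.69), Itga2 (0.76) and the collagen receptor Ddr1 (1.01), and 3 fell, Itga5 (-0.33), the fibronectin partner, Itgb5 (-0.87) and Lair1 (-0.47), an inhibitory collagen receptor.

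Markers of the cells that could hold these transcripts were measured beside them. Of 14 osteoblast-lineage genes, Bglap2, Dmp1, Dlx5 and Mepe had 0 counts in all 16 libraries, Ibsp had 1 count in all, and Alpl, Bglap and Sp7 averaged 0.0215, 0.0377 and 0.0900 CPM. The summed level of the list, to which Runx2 added 9.99 CPM on average, was 13.9 to 25.1 CPM in the double mutant, 8.66 to 15.8 CPM in FLT3 ITD, 11.9 to 16.4 CPM in Ptprc KO and 11.9 to 17.3 CPM in WT. Of 16 bone marrow stroma genes, Cxcl12, Pdgfra and Lepr averaged 0.0556, 0.0692 and 0.276 CPM. Pdgfrb averaged 0.407 CPM (r = 0.59 to Col1a1) and Kitl 14.3 CPM (r = -0.0067 to Col1a1). That list summed to 81.5 to 301 CPM in the double mutant, 119 to 302 CPM in FLT3 ITD, 98.2 to 439 CPM in Ptprc KO and 107 to 370 CPM in WT, and its leading genes Gas6 and Vcam1 are expressed by macrophages too. Of its 8 tested genes, Vcam1 (-1.41), Eng (-0.65) and Cxcl14 (-1.65) fell with Ctsk and Serpine2 (0.83) rose. Of the 5 tested osteoblast-lineage genes, Runx2 (-0.40) and Cdh11 (-0.77, with r = 0.72 to Col1a1) fell and none rose. Smooth muscle and pericyte genes summed to 1.24 to 6.29 CPM in the double mutant, 1.78 to 7.20 CPM in FLT3 ITD, 1.51 to 9.68 CPM in Ptprc KO and 2.66 to 7.75 CPM in WT. Among the 4 tested, Tagln correlated with Col1a1 at r = 0.88 and Acta2 at r = 0.81 over the 16 libraries. Both fell with Ctsk (-1.81 ± 0.51 and -1.05 ± 0.29). The others, Cspg4 and Mylk, had r = 0.38 and 0.59 with Col1a1, and their slopes did not pass (edgeR adjusted p = 0.0629 and 0.105). Genes of that list that were not tested averaged at most 0.0592 CPM. The part of these marker genes in the levels of the matrix genes was not tested.

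Genes of other blood cells also moved with Ctsk. Of 12 macrophage genes, 7 fell with Ctsk (17.7% of all genes did) and none rose, among them Adgre1 (-1.13) and C1qb (-1.32), and their r with Fn1 (0.64 to 0.71 for the 7) was above that with Col1a1 (0.25 to 0.48). The 7 were taken by their slope on Ctsk, and Fn1 had a stronger pooled r with Ctsk than Col1a1 (-0.54 against -0.35). The difference in r is therefore not independent of Ctsk. The macrophage list summed to 2875 to 8935 CPM in the double mutant, 2953 to 8359 CPM in FLT3 ITD, 2728 to 7186 CPM in Ptprc KO and 2938 to 6871 CPM in WT. All 3 tested genes of the platelet list fell (Ppbp by 3.03 ± 0.86, Pf4 by 1.41 ± 0.50 and Treml1 by 0.78 ± 0.27). The rest of that list was nearly absent. Gp9 and Gp1bb had 0 counts in all 16 libraries, Gp6 had 4, and Itga2b averaged 0.263 CPM. The list summed to 12.3 to 183 CPM in the double mutant, 27.0 to 257 CPM in FLT3 ITD, 10.8 to 324 CPM in Ptprc KO and 5.30 to 168 CPM in WT. The 13 osteoclast genes other than Ctsk all rose with it (18.5% of all genes did), from 0.36 for Ostm1 to 1.08 for Oscar. Of the other lists, 4 endothelial, 7 neutrophil, 1 B cell and 1 T cell gene were tested and none passed, and no erythroid gene was tested. Comp of the chondrocyte list (-1.25) and Lpl and Fabp4 of the adipocyte list (-0.46 and -1.20) fell. Plin1, Cfd and Lep of the adipocyte list had 0 counts in all 16 libraries, and Adipoq had 2. No gene of any list passed in a comparison of genotypes. Whether transcripts of the macrophage or platelet lists account for part of the matrix genes' slopes was not tested.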

How the data were processed

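RNA from 16 osteoclast cultures, 4 libraries per genotype, was sequenced after poly(A) selection with a directional kit and UMI adaptors, per the labels' protocols. The authors deposited raw counts per gene. A second table deposited by the authors gives TPM, expression per unit of gene length scaled within each library. Per the submitters' processing notes, the build was GRCm38.p6 and the tools included featureCounts 2.0.3, UMI-tools 1.1.1, the aligner STAR 2.7.6a, the trimmer cutadapt 4.2 and bcl2fastq 2.20.0.422. Their order, settings and use of strand are not given in the sources used here. Positions came from the GENCODE annotation of that build.

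Counts were fitted with edgeR 4.0.16 (R 4.3.3): filterByExpr, TMM factors, robust quasi-likelihood over all 16 libraries, two-sided, Benjamini-Hochberg adjustment over all tested genes, threshold 0.05. The slope on Ctsk added its centred log2 CPM to the 4 group means. CPM use TMM-scaled totals, and log2 CPM a prior count of 2. Correlations used 100000 permutations. Total counts were 24211724 to 35773313, and replicates differed with a coefficient of variation of 0.370 (12 residual degrees of freedom), so low-count genes are imprecise. The alternatives tried were a replicate block, RLE factors, a fit of only the groups compared, no filter or a minimum mean count of 50, DESeq2 1.42.0, limma 3.58.1 (voom with quality weights, log2(TPM + 1), log2(TPM + 0.1) for a mean TPM of at least 0.5), FLT3 ITD replicates 1 and 3 summed, and each library left out. That sum with FLT3 ITD replicate 2 also left out was added after seeing the data. Scripts were tested on simulated data.

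The matrix genes, lists and tests were chosen with earlier results of these data known. All 7 genes, Ctsk and Ptprc are named, with the 3 genes most alike to each of the 7 and to Ctsk. The 3 highest genes of each list and list genes past the threshold could be named, and not all are. List genes named outside that rule (Serpinh1, Ibsp, Alpl, Bglap, Sp7, Cxcl12, Pdgfra, Lepr, Pdgfrb, Kitl, Itga2b, Gp6 and those at 0 counts) were chosen after their values were seen, as markers of their lists.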

Additional observations from a re-analysis of the deposited data

Results flagged for a closer look

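Among 32 groups of 4 libraries (the 7 matrix genes and Ctsk in 4 genotypes), 3 had a library far from the other 3 in log2 CPM, by Dixon's criterion at the 95% level. Chance gives this in about 1 in 20 groups. Col1a1 in FLT3 ITD replicate 4 was 2.08 CPM, against 0.345 to 0.390 CPM in the other FLT3 ITD libraries. Bgn in the same library was 0.999 CPM, against 0.606 to 0.658 CPM. Col3a1 in double mutant replicate 3 was 0 CPM, against 0.450 to 0.660 CPM in the other double mutant libraries. FLT3 ITD replicate 4 also had the lowest Ctsk of its genotype, and double mutant replicate 3 the highest.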

How the results depend on the processing

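Single values of the 7 genes in chosen comparisons numbered 1072 under alternatives, with the counts of calls not included. The count of 0 called genes between genotypes held under all alternatives except voom with quality weights, which called 4 in FLT3 ITD against WT, 1 in FLT3 ITD against Ptprc KO and 5 in the interaction. On the slope, 5 genes were called, 3 with a mean count of at least 50 (which leaves Col1a1, Col1a2 and Fn1), 1 with log2(TPM + 1), 0 without genotype terms, 0 with a replicate block (Col3a1 -1.89, Fn1 -1.16, Col1a1 -1.02, Sparc -0.87 and Col1a2 -0.80, adjusted p 0.103 to 0.291), 4 with FLT3 ITD replicates 1 and 3 summed and replicate 2 left out (Fn1 -1.43, adjusted p = 0.0879), and 2 to 6 with a library left out. For the correlation with Ctsk, centring raised the count to 3, and leaving out a library gave 0 to 1. The replicate block called 1019 of all genes on the slope, against 4386. Deviations from the genotype mean were correlated between same-numbered libraries. The r ran from -0.127 to 0.466 for number 1 and from -0.543 to 0.475 for number 2. It ran from -0.633 to 0.719 for number 3 and from -0.0708 to 0.851 for number 4. Such mixed values cannot decide whether a number marks a shared batch or day, and the labels do not say. Of all genes, the double mutant against WT, FLT3 ITD against WT, Ptprc KO against WT, the double mutant against FLT3 ITD, the double mutant against Ptprc KO, FLT3 ITD against Ptprc KO and the interaction gave 13, 5, 4, 1, 11, 9 and 1 calls with edgeR, 117, 60, 11, 984, 332, 48 and 165 with DESeq2, and 3928, 1933, 556, 7016, 6979, 378 and 7296 with voom.

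Directions changed only for values that did not pass the test. Fn1 in FLT3 ITD against WT was -1.17 with the block, -2.28 with voom, -0.56 with log2(TPM + 1) with or without the filter, -1.39 with log2(TPM + 0.1) and -3.37 to 0.83 with a library left out. Bgn in Ptprc KO against WT was 0.0054 with the block, 0.072 with voom and -0.48 to 0.24 with a library left out. Bgn in the double mutant against FLT3 ITD was -0.022 with log2(TPM + 0.1), -0.030 with FLT3 ITD replicates 1 and 3 summed and replicate 2 left out, and -0.058 to 0.45 with a library left out. With a library left out, Dcn in Ptprc KO against WT ran from -0.13 to 0.52, Fn1 in the double mutant against WT from -1.16 to 0.30, the slope of Bgn from -0.44 to 0.037 and the correlation of Dcn with Ctsk from -0.26 to 0.62. Without genotype terms the slopes of Bgn and Dcn were 0.22 and -0.22, the centred correlation of Bgn was -0.40, and the correlation of Dcn on log2(TPM + 1) was -0.23. The cause of these changes was not tested. Counts under about 40 per library limit all 7 genes.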
